A study of Homo sapiens with 8 samples.

Results

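The HOX genes of clusters A to D were examined in ATAC-seq peak lists of mitotic human cells. Members were the 38 protein-coding HOX genes named in the selection, of 19970 protein-coding genes on chromosomes 1 to 22 and X: 10 each in clusters A and B, and 9 each in clusters C and D. They were selected by name and not by their signal. A gene was counted as called in a list when a peak overlapped the gene or the 1 kb on either side, its window. In ATAC-seq the transposase Tn5 inserts adapters into accessible DNA, and a peak is a stretch with more insertions than the background of its own library.

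All 8 libraries came from hTERT RPE-1, a telomerase-immortalised human line derived from retinal pigment epithelium, of genotype Plk1-/- EGFP-Plk1as. Plk1 is a kinase that drives many steps of mitosis. In every library, controls included, the cell's own Plk1 was absent and EGFP-tagged Plk1as stood in for it, a version sensitive to the ATP-site inhibitor 3MB-PP1. Cells spent 16 h in 5 µM STLC, an inhibitor of the mitotic kinesin Eg5 that holds cells in prometaphase, and were collected by shake-off. For the next 2 h, with STLC still present, 4 libraries' cells were kept in 0.5% DMSO and those of the other 4 in 10 µM 3MB-PP1, at a mitotic index above 95% and with 50000 cells per reaction. The comparison asks how accessibility at the HOX genes of mitotic chromosomes differs when Plk1 is inhibited. It rests on 1 cell line in 1 arrested state, and the labels number the replicates without saying that they were separate cultures, so p-values measure only the spread between these libraries.

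HOX genes encode homeodomain transcription factors that set position along the body axis. Within a cluster the genes lie in the order in which they are expressed from head to tail, and genes with the same number in different clusters, called paralogues, descend from a common ancestral gene. Silent parts of a cluster are usually held by the Polycomb complexes PRC2 and PRC1, active parts by MLL and trithorax proteins, and the DNA-binding protein CTCF can mark the border between them. Most HOX promoters lie in long CpG-rich stretches.

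The lists held 150577 to 199042 peaks with DMSO and 170682 to 252752 with 3MB-PP1, and read depth is unknown because no read totals were given. Peaks were called per library, so a missing peak is not a lack of signal. Of the markers of retinal pigment epithelium, 5 of 7 were called in all 8 lists (OTX2, MITF, PAX6, RLBP1 and TYR), while BEST1 was called in 7 and RPE65 in 2. Called in all 8 were also 3 of 3 markers of simple epithelium, 4 of 4 of mesenchyme, 2 of 4 of blood, 2 of 3 of neurons and 0 of 2 of liver, beside 78.2% of all genes. These are calls at a gene and not expression.

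Most of the HOX transcript starts on record, which come mainly from clusters A and D, carried no peak. RefSeq's promoter table of assembly GRCh38.p14 held 27 starts of 20 members in 26 distinct windows, each running from 250 bases before to 50 after a start. Of these, 16 belong to cluster A (7 of them to HOXA3), 8 to D, 2 to C and 1 to B, so clusters B and C, which hold 8 of the 10 members called in every list, are hardly covered. Of the 27, 0 had a peak in all 8 lists, against 39.1% of 34961 promoters of all genes, and 17 (63.0%) had a peak in no list, against 33.2%. Per list, 1 to 2 of the 27 windows had a peak with DMSO and 2 to 5 with 3MB-PP1, beside 49.5% to 52.8% and 47.2% to 53.1% of all promoters. HOXD1, which sits at the anterior end of cluster D, had the most calls at a start, in 5 lists, 1 with DMSO and 4 with 3MB-PP1. One of the starts of HOXA3 had a peak in 3 DMSO lists and 1 3MB-PP1 list, and that of HOXD13 in 1 and 2. When windows were widened to 1 kb either side of a start, 1 of 27, in HOXA3, had a peak in every list, against 46.3% of all promoters. At the gene ends as listed, with 250 bp either side of either end, 1 of 38 members had a peak in all 8 lists (HOXB9), against 51.9% of all protein-coding genes.

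The HOX starts were rich in CpG and still mostly without peaks. Their median ratio of observed to expected CpG in the 250 bases was 0.888, against 0.558 for all promoters. Among the 6945 promoters of any gene at or above the HOX median, 77.6% had a peak in all 8 lists. Of 44 starts of homeobox genes outside the clusters, 13 (29.5%) did. The median GC content of the HOX windows, 58.8%, was close to the 58.4% of all promoters. It was 70.4% for the 6945 promoters and 66.2% for the homeobox starts outside the clusters. The 6945 were thus chosen by CpG ratio alone and were richer in GC than the HOX windows.

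Promoter sequences are shown for members selected by rule or after their values were seen. By rule, the highest peaks of HOXA3, HOXC4 and HOXD3 had the highest mean pileup percentile in their clusters among members called in every list. HOXA3 and HOXD3 were the only such members of clusters A and D. Over the lists that called them, HOXD12 and HOXD13 had higher means than HOXD3 (93.7 and 88.4 against 59.5). Likewise HOXA9, called in 1 list, lay above HOXA3 (86.4 against 85.9). HOXC9, called in 2 lists, lay above HOXC4 (92.0 against 91.7). HOXA9 was selected by rule as a member called in few lists, 1 in its case. HOXA4 and HOXD1 were chosen after their values were seen because of their calls with 3MB-PP1. The sequences are the 250 bases before the start, 5′ to 3′ on the gene's strand. Capitals mark matches to 3 motifs, each sought on both strands. The GC box, a site of SP-family factors, was read as GGGCGG. The CCAAT box, a site of the factor NF-Y, was read by its name. TATAAA stood for the TATA box, where the general transcription machinery can bind. HOXB3, HOXB5 and HOXB8, which the same rule selected, have no entry in the table.
HOXA3 chr7:27118358-27118607 (minus strand): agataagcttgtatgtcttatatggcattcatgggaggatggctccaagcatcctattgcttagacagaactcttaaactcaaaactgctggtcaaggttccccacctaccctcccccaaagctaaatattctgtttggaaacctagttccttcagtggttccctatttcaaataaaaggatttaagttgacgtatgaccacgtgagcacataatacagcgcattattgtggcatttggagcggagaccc
HOXC4 chr12:54016638-54016887 (plus strand): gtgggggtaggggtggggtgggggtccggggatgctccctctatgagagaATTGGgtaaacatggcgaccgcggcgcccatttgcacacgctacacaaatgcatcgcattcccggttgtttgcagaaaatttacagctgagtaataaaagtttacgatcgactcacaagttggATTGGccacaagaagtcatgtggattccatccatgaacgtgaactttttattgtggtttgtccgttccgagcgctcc
HOXD3 chr2:176157057-176157306 (plus strand): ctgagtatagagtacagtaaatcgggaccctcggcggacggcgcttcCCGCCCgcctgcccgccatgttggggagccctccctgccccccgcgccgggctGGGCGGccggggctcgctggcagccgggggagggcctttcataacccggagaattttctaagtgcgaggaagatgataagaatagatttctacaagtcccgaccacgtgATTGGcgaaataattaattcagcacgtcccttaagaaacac
HOXA9 chr7:27165538-27165787 (minus strand): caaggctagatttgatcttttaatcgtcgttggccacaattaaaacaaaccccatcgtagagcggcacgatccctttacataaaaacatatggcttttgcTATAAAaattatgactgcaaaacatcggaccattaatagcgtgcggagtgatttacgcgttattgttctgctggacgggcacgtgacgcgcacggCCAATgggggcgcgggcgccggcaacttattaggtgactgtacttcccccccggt
HOXA4 chr7:27130758-27131007 (minus strand): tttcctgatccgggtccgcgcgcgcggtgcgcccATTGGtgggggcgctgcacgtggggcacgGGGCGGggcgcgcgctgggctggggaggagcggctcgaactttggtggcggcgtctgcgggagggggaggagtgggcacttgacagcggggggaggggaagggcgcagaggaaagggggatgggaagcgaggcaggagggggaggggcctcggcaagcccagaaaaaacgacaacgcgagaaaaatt
HOXD1 chr2:176188418-176188667 (plus strand): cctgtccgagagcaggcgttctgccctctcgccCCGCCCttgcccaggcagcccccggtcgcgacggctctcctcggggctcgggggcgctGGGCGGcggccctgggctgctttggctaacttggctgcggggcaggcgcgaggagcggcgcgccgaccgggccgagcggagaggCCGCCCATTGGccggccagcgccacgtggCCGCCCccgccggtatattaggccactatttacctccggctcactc
The HOXC4 start is also that of HOXC5 in the table. The HOXD1 promoter held 4 GC boxes and 1 CCAAT box that directly abuts 1 of them, and the HOXA3 start shown held none of the 3 motifs. Over the 27 HOX windows a GC box was found in 48.1%, against 42.7% of all promoters, and a CCAAT box in 66.7%, against 32.0%. TATA boxes were found in 18.5% and 10.7%. A match describes these letters only.

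Over whole gene windows, starts included, fewer HOX genes than genes in general were called in every list. Of the 38 HOX genes, 10 (26.3%) were called in all 8 lists, against 78.2% of all protein-coding genes, 27 in 1 to 7 lists (17.2% of all genes), and 1, HOXB5, in none (4.55%). HOX windows are short, with a median of 5786 bp against 26190 bp for all genes. Among genes with windows no longer than the HOX median, 1 of 19 HOX genes (5.26%) and 35.3% of all 2431 such genes were called in every list, while 1 of 19 (5.26%) and 20.4% were called in none. Short HOX windows were thus more often called in some lists only. The share of the window under peaks was less different, with a median over genes of 4.23% for HOX and 5.38% for all, and 21 of 38 HOX genes lay below the latter.

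The 10 members called in every list were HOXA3, HOXB3, HOXB6, HOXB9, HOXB13, HOXC4, HOXC5, HOXC6, HOXC8 and HOXD3. Listed gene extents overlap within clusters: HOXA3 spans HOXA4, HOXA5 and HOXA6, HOXB3 spans HOXB4, HOXD3 overlaps HOXD4, and HOXC4, HOXC5 and HOXC6 have the same listed start, so some calls are counted for several members. Of the peaks in member windows, 4 to 8 per list lay in windows of more than 1 member.

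**Figure D1:**
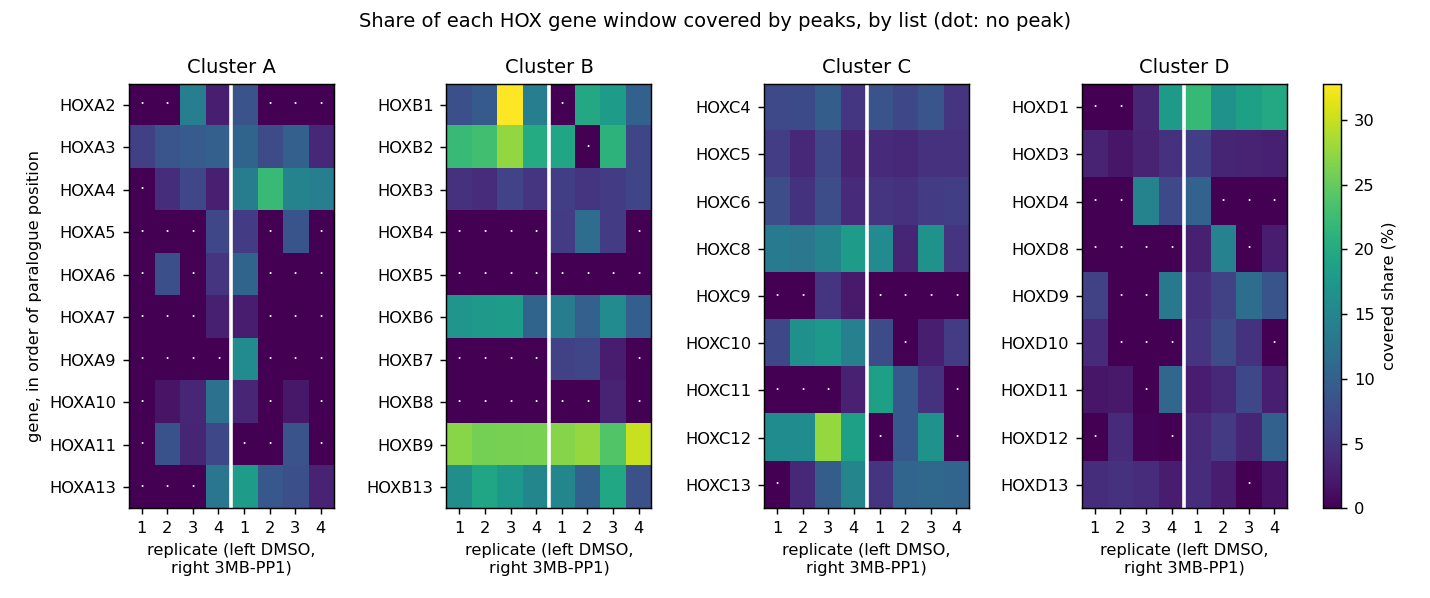
Share of each HOX gene window covered by peaks (colour, percent), with genes as rows in order of paralogue position and lists as columns, DMSO replicates 1 to 4 left of the white line and 3MB-PP1 replicates 1 to 4 right of it; a dot marks no peak. HOXB9 is bright in all 8 lists, HOXB5 is empty in all 8, and HOXA5, HOXA6, HOXA7 and HOXA9 are empty in at least 5.

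HOXB9, a posterior-type gene of cluster B, had the highest covered share of any member (26.7% of its window, mean of 8 lists). Peaks covered 1944, 1868, 1881 and 1883 bp of it with DMSO in replicates 1 to 4, and 1932, 1991, 1717 and 2165 bp with 3MB-PP1. The groups overlapped, and HOXB9 had the smallest SE of the 26 members fitted (log2 difference 0.04, SE 0.12, limma adjusted p = 0.921). HOXB6, which had the widest peak of cluster B, gave 1928, 1989, 2031 and 1190 bp with DMSO and 1551, 1134, 1775 and 1105 bp with 3MB-PP1. DMSO replicate 4 lay with the treated lists there, and the groups overlapped, although each pair was lower with 3MB-PP1 (log2 difference -0.33, SE 0.23, limma adjusted p = 0.539).

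HOXA3, the member with the widest peak of cluster A, had 2945, 4134, 4453 and 4792 bp under peaks with DMSO. The 3MB-PP1 values were 5057, 3535, 4799 and 1720 bp. These spanned the DMSO range on both sides (log2 difference -0.20, SE 0.33, limma adjusted p = 0.822). HOXA7 was at the low end of cluster A, with 145 bp in DMSO replicate 4, 121 bp in 3MB-PP1 replicate 1 and no peak in the other lists. HOXA9 was called only in 3MB-PP1 replicate 1 (807 bp), and HOXB8 only in 3MB-PP1 replicate 3 (155 bp). A region 524 bp from HOXA9 (chr7:27160363-27161914) was called in 7 lists. Only its peak in 3MB-PP1 replicate 1 reached the HOXA9 window.

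Across paralogue positions, calls were most complete at positions 3 and 13. Over genes and lists, positions 1 to 3 had a peak in 47 of 56 cases (83.9%), positions 4 to 8 in 68 of 120 (56.7%) and positions 9 to 13 in 87 of 128 (68.0%). Position 3 (HOXA3, HOXB3, HOXD3) was called in 24 of 24 cases, in long windows of 47574, 43372 and 22570 bp. Position 13 had 27 of 32 (84.4%), and positions 1 and 2 together 23 of 32 (71.9%). Position 7 (HOXA7, HOXB7) was lowest, with 5 of 16. Positions 4 to 8 were called in 29 of 60 cases with DMSO and 39 of 60 with 3MB-PP1, positions 1 to 3 in 24 and 23 of 28, and positions 9 to 13 in 41 and 46 of 64. Of all genes, 86.6% to 89.4% were called per list with DMSO and 86.2% to 91.3% with 3MB-PP1. Median windows were 4486 bp at positions 1 to 3, 4960 bp at 4 to 8 and 6297 bp at 9 to 13. For all genes the median was 26190 bp. The position counts are over members, count peaks in overlapping windows more than once, and were not tested.

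**Figure D2:**
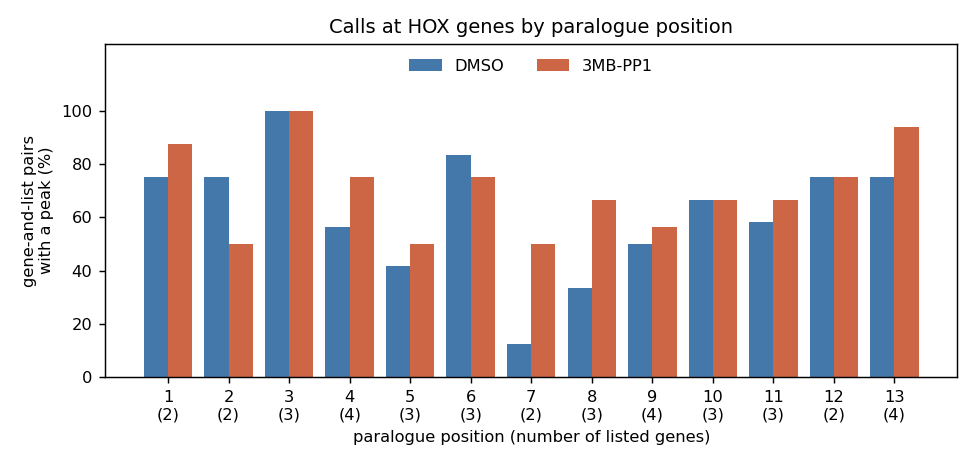
Share of gene-and-list pairs with a peak (percent) by paralogue position, with the number of listed genes in brackets and bars for DMSO and 3MB-PP1. Position 3 reaches 100% in both groups and position 7 is lowest over both groups, with 5 of 16 pairs.

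In none of the clusters did the covered shares of the treatments stand apart. The span of each cluster with 1 kb either side was GRCh38 chr7:27099354-27201091 for A, chr17:48527526-48729750 for B, chr12:53937831-54057030 for C and chr2:176086487-176191907 for D. Peaks covered 3.58%, 6.14%, 6.07% and 9.13% of cluster A with DMSO and 9.95%, 4.96%, 7.61% and 2.41% with 3MB-PP1 in replicates 1 to 4. Both means were 6.23%, with SDs of 2.27 and 3.26 (n = 4 each), and the difference was 3.95 percentage points over odd replicates and -3.95 over even ones. Cluster A thus moved in opposite directions in the 2 pairs of replicates, and its most and least covered lists were both treated ones.

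Cluster B was covered at 6.90% ± 0.97 (SD, n = 4) with DMSO and 6.17% ± 0.79 with 3MB-PP1, and 4 of 4 same-numbered pairs had the lower share under 3MB-PP1. Cluster C had 7.96% ± 1.40 and 6.47% ± 1.58, lower in 3 of 4 pairs. Cluster D went the other way, with 5.01% ± 0.71 and 5.58% ± 0.61. Over all protein-coding windows the share was 4.09% ± 0.44 and 3.63% ± 0.37, also lower in 4 of 4 pairs. 

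Peaks in the clusters were narrower on average with 3MB-PP1, as peaks were genome-wide, and in clusters A, B and D there were more of them. Mean length per peak was 702 bp ± 162 (SD, n = 4) with DMSO and 427 bp ± 57.3 with 3MB-PP1 in A, and 602 bp ± 100.9 and 459 bp ± 37.8 in B. In C it was 454 bp ± 39.8 and 394 bp ± 24.5, and in D 650 bp ± 199 and 439 bp ± 63.8. Over all peaks of a list it was 559 bp ± 46.1 and 416 bp ± 26.2, narrower in 4 of 4 pairs. Peak numbers averaged 10.0 and 14.25 in A and 23.25 and 27.25 in B, each higher in 3 of 4 pairs, and 21.0 and 19.75 in C. Cluster D had 9, 6, 10 and 9 peaks with DMSO and 16, 12, 17 and 10 with 3MB-PP1, higher in 4 of 4 pairs. The lowest treated list equalled the highest DMSO list. The lists as a whole were longer with 3MB-PP1 in 3 of 4 pairs, and the part of list length in these widths and counts was not tested.

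**Figure D3:**
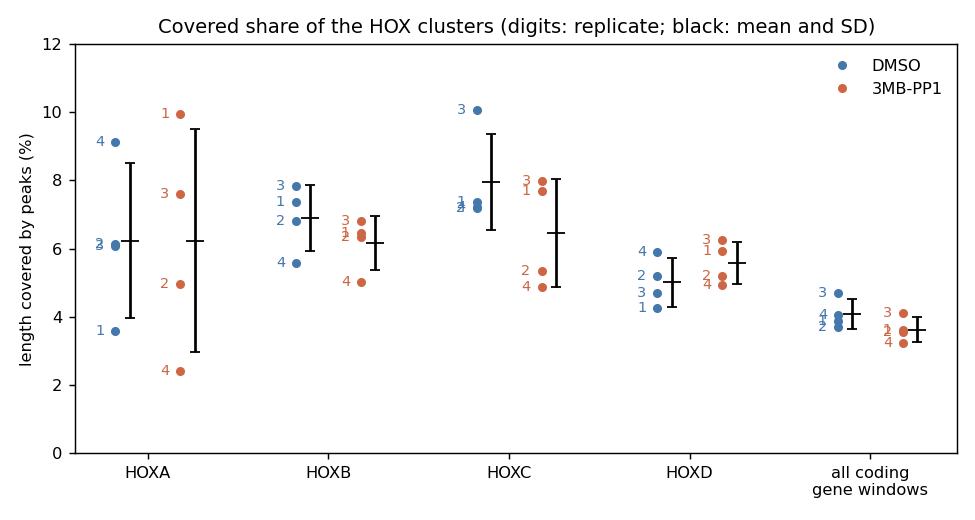
Length covered by peaks (percent) in HOX clusters A to D and in all protein-coding gene windows, with 1 point per list labelled by replicate and the mean with SD in black. Cluster A spreads most, from 2.41% to 9.95%, both in 3MB-PP1 lists, and every cluster's groups overlap.

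HOX peaks ranked high by pileup in cluster C, and less so by -log10 p. The deposited pileup is the height of fragments stacked in a peak, and it was read only as a percentile within its own list. Taking each called member's highest peak in each list, the median percentile was 90.0 in C (range 79.4 to 95.2), 85.9 in B, 77.9 in A and 63.8 in D. The deposited -log10 p sets pileup against the local background. In cluster C a window's highest percentile by -log10 p was lower, with a median of 63.2 and a range of 14.7 to 92.4. It was taken over all peaks of the window and can belong to another peak than the highest by pileup. The median pileup percentile of all peaks in cluster C was 82.6 to 92.1 over the lists, against 68.4 to 75.0 within 5 Mb around it, and was higher inside in 8 of 8 lists. By -log10 p it was 34.2 to 55.7 inside and 49.9 to 55.2 around, and lower inside in 7 of 8 lists. For cluster A the pileup ranges were 71.7 to 79.9 inside and 36.8 to 42.8 around, higher inside in 8 of 8 lists. Cluster B had 51.7 to 75.0 inside and 68.3 to 73.3 around, higher inside in 2 of 8, and cluster D 27.5 to 66.6 and 27.7 to 35.5, higher inside in 7 of 8. By -log10 p the inside was lower in 4 of 8 lists for A, 2 for B and 7 for D. The chromosome medians were 53.1 to 60.7 for chromosome 12 and 44.4 to 47.3 for chromosome 7.

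No HOX gene passed the test for a change in covered length with 3MB-PP1. limma was fitted to log2(covered bp + 100) for the 18068 genes called in at least 4 of 8 lists, 26 HOX genes among them. Of the 26, 0 passed an adjusted p of 0.05, as 0 of all genes did (0.0%), and 5 HOX genes had an unadjusted p under 0.05, against 2361 of all genes (13.1%). The smallest adjusted p of a HOX gene was 0.253, and none passed with the replicate number as a block. HOX fold changes had a median of -0.06 (log2) and 12 of 26 were positive, beside a median of -0.14 and 31.6% positive over all genes. Fold changes on this scale understate changes at small lengths. The 12 members not fitted, those called in fewer than 4 lists, were HOXA2, HOXA5, HOXA6, HOXA7, HOXA9, HOXB4, HOXB5, HOXB7, HOXB8, HOXC9, HOXD4 and HOXD8.

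HOXA4 was the member whose groups stood apart. Its window held 0, 184, 294 and 120 bp of peak with DMSO in replicates 1 to 4, and 588, 933, 623 and 592 bp with 3MB-PP1. Every treated list lay above every DMSO list (log2 difference 1.79, SE 0.47, limma adjusted p = 0.253). Higher without overlap were 1 of 38 HOX genes and 1.16% of all genes, and lower without overlap 0 of 38 and 5.87%. The peaks belong to 1 region, chr7:27129971-27130928, which contains the HOXA4 start and also counts for HOXA3, although the 300 bp window at the start had a peak in 1 list only. Their pileup percentiles were 31.6 to 54.5 in the 3 DMSO lists with a call and 57.6 to 76.3 with 3MB-PP1, in lists of different length.

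HOXD1 had 0, 0, 148 and 756 bp with DMSO and 929, 715, 789 and 838 bp with 3MB-PP1. It was higher with 3MB-PP1 in 4 of 4 pairs, and DMSO replicate 4 fell among the treated values (log2 difference 2.09, SE 0.67, limma adjusted p = 0.297). HOXA13, the most posterior gene of cluster A, had 0, 0, 0 and 999 bp with DMSO and 1388, 687, 616 and 243 bp with 3MB-PP1. Again DMSO replicate 4 lay within the treated range (log2 difference 2.01, SE 0.87, limma adjusted p = 0.378). HOXD12 gave 0, 188, 16 and 0 bp against 188, 263, 161 and 480 bp (log2 difference 1.39, SE 0.68, limma adjusted p = 0.421). It was higher in 4 of 4 pairs, and the lowest treated lists met DMSO replicate 2. Except for the 263 bp in treated replicate 2, these lengths were the edge of wider peaks, of 1659 to 2404 bp, between HOXD13 and HOXD12. The region of those peaks was covered less in every treated list than in any DMSO list. With 5 kb either side of HOXD12 the log2 difference changed sign.

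HOXC12 and HOXC10, posterior genes of cluster C, lay the other way. Of the other posterior genes of the cluster, HOXC11 and HOXC13 did not. HOXC9, which was not fitted, had peaks in 2 DMSO lists and no treated list. HOXC11, between the 2, had a log2 difference of 1.74 (SE 0.90, limma adjusted p = 0.444). For HOXC13 it was 0.89 (SE 0.78, limma adjusted p = 0.636). HOXC12 had the highest covered share and the widest peak of its cluster, with 965, 968, 1670 and 1128 bp with DMSO and 0, 547, 1020 and 0 bp with 3MB-PP1. Each of the 4 pairs was lower with 3MB-PP1, and the groups met at treated replicate 3 (log2 difference -2.10, SE 0.80, limma adjusted p = 0.340). The main HOXC12 region, chr12:53956573-53958498, had 965, 968, 1670 and 1128 bp with DMSO and 0, 547, 733 and 0 bp with 3MB-PP1. Its groups stood apart, and a separate peak in treated replicate 3 closed the gap for the gene. HOXC10, chosen after its values were seen, had 511, 1171, 1247 and 1017 bp with DMSO and 533, 0, 192 and 407 bp with 3MB-PP1. Only DMSO replicate 1 and treated replicate 1 overlapped (log2 difference -1.74, SE 0.58, limma adjusted p = 0.303).

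**Figure D4:**
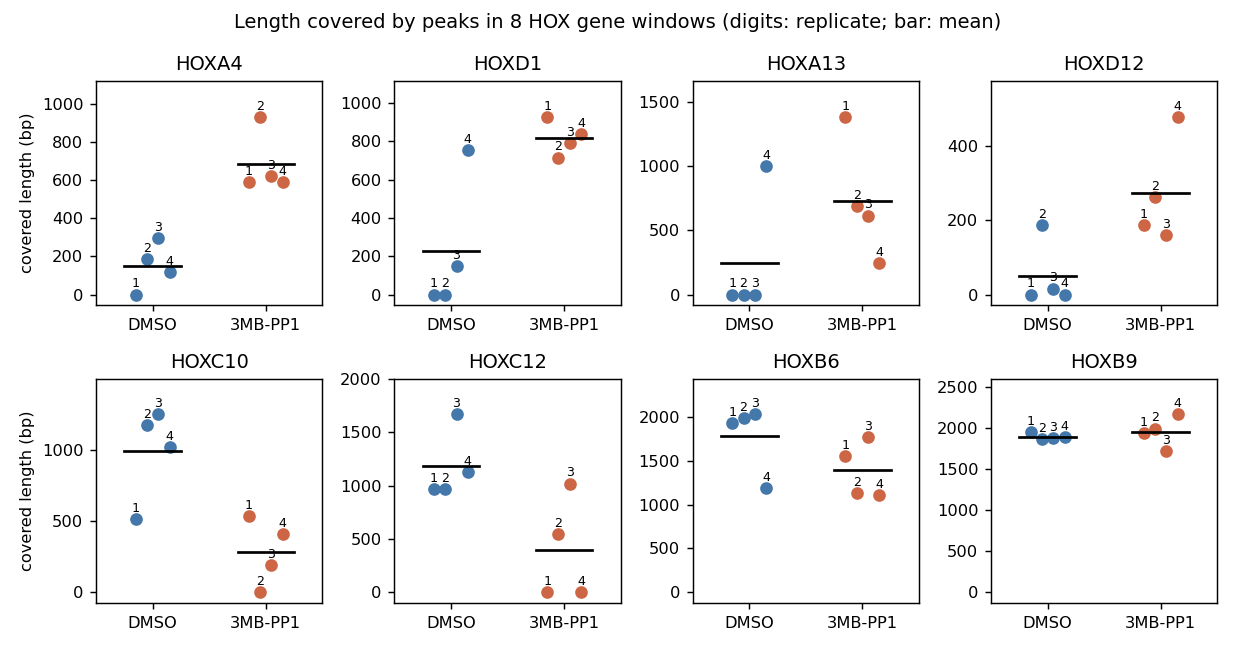
Length covered by peaks (bp) in 8 HOX gene windows, by treatment, with 1 point per list labelled by replicate and a bar at the mean. The groups are apart at HOXA4, meet or overlap in part at HOXD1, HOXA13, HOXD12, HOXC10, HOXC12 and HOXB6, and overlap fully at HOXB9.

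Calls came and went at many members. Per list, 18, 22, 24 and 30 of 38 HOX genes were called with DMSO and 32, 25, 29 and 22 with 3MB-PP1, while 86.2% to 91.3% of all genes were. The mean difference was 3.5 genes, and it was 9.5 in odd replicates and -2.5 in even ones. It fell to 1.67 when DMSO replicate 1 was left out and to 1.83 when replicate 1 of 3MB-PP1 was, and rose to 5.67 on leaving out DMSO replicate 4. No HOX gene was called in all lists of one group and none of the other, beside 0.0801% of all genes for 3MB-PP1 and 0.015% for DMSO.

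Called in at least 2 more lists with 3MB-PP1 were 9 of 38 HOX genes (2.79% of all genes, and 16.2% of those called in 1 to 7 lists): HOXA13, HOXB4, HOXB7, HOXC11, HOXD1, HOXD8, HOXD9, HOXD10 and HOXD12. The reverse held for 3 (1.37% and 7.96%): HOXA11, HOXC9 and HOXC12. All 12 are among the 27 HOX genes called in 1 to 7 lists. HOXD12 was called mostly through the edge of the region between it and HOXD13, which had a peak in every list.

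HOXB4, HOXB7 and HOXD8 had no peak in any DMSO list. With 3MB-PP1, HOXB4 had 281, 565, 276 and 0 bp, HOXB7 had 374, 398, 155 and 0 bp, and HOXD8 had 147, 724, 0 and 126 bp. Each lacked 1 treated list, replicate 4 for the cluster B genes and replicate 3 for HOXD8. HOXC9 was the mirror image, with 0, 0, 255 and 124 bp with DMSO and no peak in any 3MB-PP1 list.

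HOXC11 had a peak in DMSO replicate 4 alone (198 bp) and 1211, 588, 314 and 0 bp with 3MB-PP1. HOXD10 had 209, 0, 0 and 0 bp with DMSO and 263, 392, 251 and 0 bp with 3MB-PP1. HOXD9 was called in every treated list (192, 268, 498 and 360 bp) and in DMSO replicates 1 and 4 (272 and 560 bp). HOXA11 had 0, 500, 207 and 430 bp with DMSO and a single treated call, 508 bp in replicate 3. None of these 4 separated the groups, and their limma adjusted p-values were 0.444, 0.598, 0.609 and 0.656 in that order.

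Peak ranks of the always-called members did not separate the treatments either. With lists reduced to equal length, the pileup percentile of a gene's highest peak was fitted with limma for 15013 genes called in all 8 lists, 9 of them HOX genes. Of the 9, 0 passed (0 at an unadjusted p under 0.05), beside 23 of all genes (0.153%), or 12 with the replicate block. HOXB3 had the smallest adjusted p, 0.331, with mean percentiles of 94.9 with DMSO and 93.3 with 3MB-PP1 (difference -1.59, SE 0.78). HOXA3 stood at 85.8 and 81.4 (difference -4.32, SE 2.59, limma adjusted p = 0.408), and HOXC6 at 85.3 and 87.9 (difference 2.64, SE 2.51, limma adjusted p = 0.592).

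Regions of the clusters were called in about as few lists as regions elsewhere. Merging the 8 lists gave 194 regions in the clusters, of which 91 (46.9%) were in 1 list and 11 (5.67%) in all 8, beside 51.9% and 6.23% of 588244 regions genome-wide. The 11 were 1 in A, 5 in B, 4 in C and 1 in D. Exons and introns were not given by the gene table, so positions are relative to listed gene extents.

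In cluster B, regions of all lists lay in HOXB3 (chr17:48584846-48586236, also the long noncoding gene HOXBLINC), in HOXB6 (chr17:48602360-48604400, also HOXB-AS3), over one end of HOXB9 (chr17:48624825-48626925), in LINC02086 (chr17:48678033-48678866) and over one end of HOXB13 (chr17:48724567-48726120, also PRAC2). In cluster C they lay 270 bp from HOXC8 (chr12:54008084-54008715), in the stretch shared by HOXC4, HOXC5 and HOXC6 (chr12:54017693-54018471), and in HOXC4 alone at 2 places (chr12:54038203-54039747 and chr12:54050982-54051825). Cluster A had chr7:27117029-27119072, which contains the HOXA3 start shown above. Cluster D had chr2:176096554-176099274, between HOXD13 and HOXD12 and 521 bp from the latter.

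The region between HOXD13 and HOXD12 was the widest of the 11 and the one whose groups stood apart. Peaks covered 2208, 2404, 2250 and 2099 bp of it with DMSO and 1986, 1534, 1811 and 1948 bp with 3MB-PP1. Every treated list lay below every DMSO list (log2 difference -0.29, SE 0.09, limma adjusted p = 0.157 over 36624 regions called in all 8 lists). Of those regions 10.9% were lower without overlap and 0.377% higher. Its deposited -log10 q was 5.74 to 12.5 with DMSO and 3.68 to 4.86 with 3MB-PP1, values that are set within each list.

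The same region decided the calls of HOXD13 at a stricter threshold. Its ends reach into the windows of HOXD13 and HOXD12. At a minimum -log10 q of 5, HOXD13, chosen after its values were seen, kept a peak in 4 of 4 DMSO lists and in none with 3MB-PP1, as 0.386% of all genes did, while 0 HOX genes and 0.01% of all genes did the reverse. By limma 198 genes were lower at that minimum (2.02%). HOXD13 entered that fit through its DMSO lists alone, and the minimum lies between the deposited -log10 q values of the groups, so its p is not given. As deposited, HOXD13 had 454, 492, 436 and 264 bp with DMSO and 435, 281, 0 and 169 bp with 3MB-PP1. The groups overlapped there (log2 difference -0.89, SE 0.56, limma adjusted p = 0.522), and within the gene body alone the difference was 0.81.

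Of the 11 HOX regions called in every list, 9 were shorter with 3MB-PP1, as 80.4% of all 36624 were. The median log2 difference was -0.33 for the 11 and -0.24 for all. With each library centred on its median, 6 of 11 and 41.5% of all were shorter, and the medians were -0.0071 and 0.08. Of the 11, 0 passed the limma test, beside 149 of all regions (0.407%), 148 of them lower, or 0 with the replicate block and 0 after each library was centred on its median. Without one library, that 149 became 0 for DMSO replicates 1, 2 and 3 and for 3MB-PP1 replicates 2 and 4, then 558 when DMSO replicate 4 was left out and 66 when replicate 3 of 3MB-PP1 was. The region at the HOXA3 start had 1695, 1120, 1891 and 1074 bp with DMSO and 1034, 262, 1082 and 566 bp with 3MB-PP1. It was lower in 4 of 4 pairs, with group ranges that overlapped at a single treated list (log2 difference -0.996, SE 0.38, limma adjusted p = 0.213, and 0.108 with the replicate block). The HOXB3 region had 1385, 1091, 1354 and 1179 bp with DMSO and 1184, 762, 1074 and 927 bp with 3MB-PP1, overlapping likewise and lower in 4 of 4 pairs (log2 difference -0.33, SE 0.16, limma adjusted p = 0.301, and 0.227 with the replicate block). In all, 6 of the 11 were lower in 4 of 4 pairs. The stretch shared by HOXC4, HOXC5 and HOXC6 and the region near HOXC8 were the 2 with longer mean cover in treated lists.

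**Figure D5:**
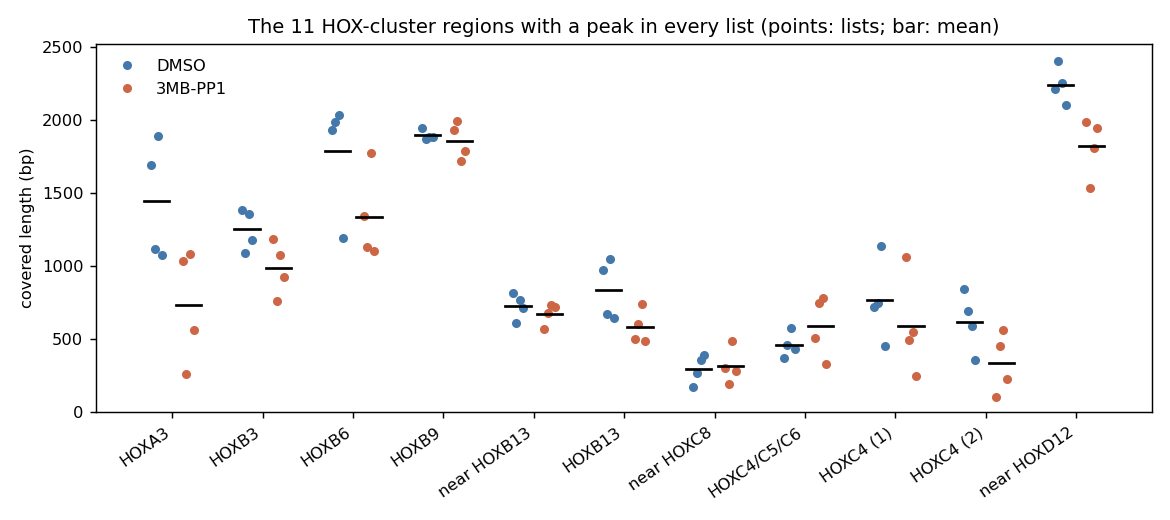
Length covered by peaks (bp) in the 11 HOX-cluster regions with a peak in every list, with 1 point per list, blue for DMSO and orange for 3MB-PP1, and a bar at the mean. The region near HOXD12 is the widest, and its treated lists (1534 to 1986 bp) all lie below the DMSO lists (2099 to 2404 bp).

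One region, in HOXC10 (chr12:53988075-53988886), had a peak in each of the 4 DMSO lists and in no treated list, a pattern of 0.12% of all regions. It held 307, 546, 641 and 327 bp of peak with DMSO. Its pileup percentiles were 87.1 to 88.9, while by -log10 p they were 13.6 to 81.7, and its -log10 q was 1.27 to 3.15. Merging regions within 500 bp joined it to neighbours and left no such region. The reverse pattern was seen at 0 of 194 regions (0.148% of all). By covered length, groups stood apart at 4 of the 194: lower with 3MB-PP1 at the regions of HOXC10, HOXC12 and between HOXD13 and HOXD12 (1.27% of all regions), and higher at that of HOXA4 (0.332%).

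Genes that act on HOX genes were mostly called in all 8 lists, as 78.2% of all genes were, and their windows are long (medians of 50478 bp for PRC2 and 36588 bp for MLL and trithorax genes, against 5786 bp for HOX). All 11 PRC2 genes and all 11 MLL and trithorax genes were called in all 8 lists, as were 17 of 18 PRC1 genes. For receptors and enzymes of retinoic acid, a signal that activates anterior HOX genes, it was 9 of 12, for genes flanking the clusters 9 of 12, and for homeobox genes outside the clusters 29 of 47. The CDX and ParaHox genes, relatives of the HOX genes, had 0 of 6, with a median window of 9217 bp. In these lists 0 genes rose and 0 fell in covered length by limma at an adjusted p of 0.05, as over all genes. Their median log2 differences ran from -0.28 for the retinoic acid genes to 0.21 for the CDX and ParaHox genes.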

How the data were processed

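ATAC-seq had been done on 8 libraries, whose titles gave group and replicate. MACS2, DESeq2 and hg38 are named in the submitters' processing notes, and the aligner, read filters, Tn5 shift and the control for peak calling are not given in the sources used here. Each library has its own deposited peak list. From the values, each deposited list gives positions and length, a pileup signal, -log10 p and -log10 q, and a fold enrichment ratio of each peak against its own background. These are the authors' values and served only to rank or filter peaks within a list. Wider or narrower calling would change every length given here.

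Chromosomes 1 to 22 and X were used, with gene extents and promoter sequences from RefSeq tables of GRCh38.p14, which give no exons here. Covered length is the merged length of peaks in a gene and 1 kb either side. limma 3.58.1 (R 4.3.3) with a mean trend was fitted to log2(covered bp + 100) of all genes called in at least 4 lists, and to pileup percentiles in lists of equal length, with Benjamini-Hochberg adjustment over all genes tested. Other steps used Python 3.11.15, pandas 2.3.3 and numpy 2.4.6. The limma script was tested on simulated data. Per-library values were printed for the members with the highest and lowest covered share and the widest peak in each cluster, those whose calls differed by 2 or more lists, those past the threshold, and those with the largest log2 difference among groups that do not overlap. The members, gene lists and tests were chosen with earlier results of these data known. The fit on regions called in all 8 lists, the promoter counts' alternatives and the split into odd and even replicates were added after the data were seen. Deviations from group means of same-numbered libraries, over the genes fitted, correlated at 0.204, 0.113, 0.137 and 0.185. Differently numbered libraries gave -0.197 to 0.148. Those values were positive where both numbers were odd or both even, and negative otherwise. Same-numbered libraries were taken as pairs, but the correlations separate odd from even numbers and do not settle which libraries pair. Alternatives were other windows, overlaps, thresholds, pseudocounts, ranks and filters, leaving out each library, and the replicate block.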

Additional observations from a re-analysis of the deposited data

Results flagged for a closer look

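Of 32 groups of 4 libraries examined, 2 had 1 library far from the other 3 by Dixon's ratio of gap to range, at the 95% level, and chance gives about 1 in 20. In the DMSO group, peaks covered 10.06% of HOX cluster C in replicate 3, against 7.19% to 7.37% in the other replicates (ratio 0.938). In the region within HOXB6 (chr17:48602360-48604400), peaks covered 1190 bp in DMSO replicate 4, against 1928 to 2031 bp in the other DMSO replicates (ratio 0.878).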

How the results depend on the processing

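In covered length, 0 HOX genes passed under all alternatives run except a minimum -log10 q of 5, where 1 did (HOXD13, which met the filter through its DMSO lists alone). The count over all genes, 0, became 200 at that minimum, 1 with 50% of the peak required inside the window and 5 with no filter on calls, and was 0 to 6 without one library. For pileup percentiles, where lists of equal length were the setting reported and no HOX gene could be fitted at the q minimum, the count over all genes moved from 23 to 168 at that minimum, 0 ranked by fold enrichment, 4 ranked by -log10 p, 12 with the replicate block, 0 in odd and 0 in even replicates, and 0 to 53 without one library. HOX calls there were 0 throughout. The replicate block changed no HOX call.

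With the q minimum, the median log2 difference was -1.67. It covers only the HOX genes still called in at least 4 lists, HOXD13 among them through its DMSO lists alone. It is therefore no measure of the HOX genes as a whole. The difference in HOX genes called per list was -3.75 and that in the share of cluster D -2.13 percentage points. In every DMSO list alone, 1 HOX gene was called. In odd replicates these 3 differences were 0.39, 9.5 and 1.61. In even replicates the difference in genes called was -2.5 and that of cluster D -0.48, and cluster A gave 3.95 in odd and -3.95 in even replicates. HOX genes called in every DMSO list alone numbered 3 in even replicates, and those called in every 3MB-PP1 list alone 5 in odd and 1 in even replicates and 1 with peaks of at least 300 bp (HOXA4). Regions of every DMSO list alone numbered 2 in lists of equal length, 5 in odd and 9 in even replicates and 0 merged within 500 bp. Those of every 3MB-PP1 list alone numbered 1 with peaks of at least 300 bp, 11 in odd and 4 in even replicates. With fewer lists per group, as in odd or even replicates or without one library, such patterns are met more easily. The shares of all genes or regions under these alternatives are not given, so the counts show nothing particular to HOX genes. The HOX promoter count was 1 with windows of 1 kb either side. Regions past the threshold among those of all 8 lists fell from 149 to 0 with the replicate block, after centring, and in odd and in even replicates.

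Without one library, the median of HOX genes ran from -0.15 to 0.06, the difference in genes called from 1.67 to 5.67, and genes of every 3MB-PP1 list alone from 0 to 2 (HOXA13 without DMSO replicate 4, HOXD8 without 3MB-PP1 replicate 3, HOXB4 and HOXB7 without 3MB-PP1 replicate 4). Regions of every DMSO list alone ran from 1 to 2, those of every 3MB-PP1 list alone from 0 to 1, regions of all lists past the threshold from 0 to 558, and cluster shares from -1.24 to 1.28 (A), -1.17 to -0.35 (B), -1.99 to -0.79 (C) and 0.31 to 0.86 (D).

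Log2 differences that changed sign were those of HOXA3 (0.43 in odd replicates, -0.37 to 0.13 without one library), HOXB9 (-0.0218 in the gene body, -0.20 with 5 kb either side, -0.0666 in odd replicates, -0.0126 to 0.0934 without one library), HOXD12 (-0.15 with 5 kb), HOXC11 (-0.45 with 5 kb), HOXA11 (0.49 in odd replicates) and HOXD13 (0.81 in the gene body, 1.15 with 50% of the peak inside). HOXA4, HOXD1, HOXA13, HOXC10, HOXC12, HOXB6, HOXD9 and HOXD10 kept their direction in all alternatives that could be fitted. The causes were not tested. Depth is unknown, so how far missing peaks reflect depth could not be examined.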
